A study of Homo sapiens with 6 samples.

Results

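The genes described here are 32 genes of glycolysis, its glucose and lactate transporters, its regulatory phosphofructokinase-2 enzymes and the pentose phosphate pathway. They were found by their symbols in a table of RefSeq protein-coding transcripts, and where a symbol had several transcripts, the most abundant over the 6 libraries (by mean) was used. All 32 were present among the 19223 symbols of the table. The filter on low values, 10 or more in 3 or more libraries, was passed by 31 of them, which were tested within a fit of 12725 genes. PFKFB1 did not reach that level and was not tested.

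RNA was measured in LoVo, a long-established human cell line derived from a colorectal adenocarcinoma (Dukes' type C), in 3 Control libraries from cells given vehicle and 3 libraries from cells given 2.5 μM DCC-2036. DCC-2036 (Rebastinib) is a tyrosine kinase inhibitor, and the comparison asks what it changes in the transcripts of the tumour cells. Cells of both groups were plated in 6-well plates and grown with serum. The labels name DMEM and the methods of the study F-12 as the medium of LoVo, and these media differ in glucose. The labels give 48 h of treatment, whereas the legend of the study gives 24 h. Only 1 cell line, 1 dose and 1 time were measured, and the labels do not say whether the 3 libraries of a group came from separate experiments, so p-values measure the spread between these libraries.

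In glycolysis, glucose enters through SLC2A transporters, is phosphorylated by hexokinase, committed by phosphofructokinase-1 and split by aldolase, and the triose phosphates are then oxidised and converted to pyruvate. Lactate dehydrogenase reduces pyruvate to lactate, which leaves the cell with a proton through SLC16A carriers. The pentose phosphate pathway branches off at glucose 6-phosphate: its oxidative arm yields NADPH and its non-oxidative arm exchanges ribose phosphates with glycolytic intermediates. Many steps have several isozymes, and colorectal tumour cells are known for high glucose use and lactate release even with oxygen present.

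Values are adjusted values: a signal that the authors brought to a common depth, with no unit of its own. Column totals over all transcripts lay between 38997229 and 40587145 in Control and between 43279603 and 48023306 in DCC-2036, and the depth in reads is unknown. A gene was called higher or lower in DCC-2036 at a Benjamini-Hochberg adjusted p-value under 0.01 in limma, over all genes tested. Fold changes are on the log2(value + 1) scale, DCC-2036 minus Control, with their SE. Of the marker genes of colorectal epithelium, EPCAM, CDX2, KRT8 and KRT18 were expressed, KRT20 was low, KRT8 rose by 0.84 (adjusted p = 0.00287), KRT20 fell by 1.15 (adjusted p = 0.00427), and VIL1, CDH17, CEACAM5 and LGALS4 were at most 7.23 in every library. PTPRC was at 0 in all 6 libraries, CD3E was at most 2.29 and PECAM1 at most 5.15. The collagen genes COL1A1 and COL3A1, known from stromal cells, were above 0 in every library, from 353.3 to 520.1 and from 6.70 to 51.5, and were not called. In bulk RNA a lower value from fewer cells of a kind and from less RNA per cell cannot be told apart.

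Promoter sequences are shown first, because 5′-ACGTG-3′ is the core of the sites that hypoxia-inducible factors bind and is known from many glycolytic promoters. It was searched on both strands in the 250 bases before each start listed in the RefSeq promoter table (GRCh38.p14). On the other strand the core reads CACGT, and it also lies inside the palindrome CACGTG, an E-box, which then counts on both strands. Of the 32 genes, 29 had an entry, and SLC2A3, PFKFB2 and SLC16A1 had none. The core was found at 1 or more starts of 14 of the 29 genes (48.3%), against 21.7% of all 27305 symbols. Genes differ in the number of starts, and per window the shares were 17 of 56 (30.4%) and 18.5% of 35116. CACGTG was in 6.34% of all windows and at a start of 6 of the 29 genes. A match is a string of letters in a window and was not tested as a binding site.

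The windows below were chosen after the values had been seen. They show 1 gene that rose with the core (HK2, with its 2 listed starts, chr2:74833877-74834126 and chr2:74834920-74835169, plus strand), 1 that rose without it (SLC2A1, chr1:42958869-42959118, minus strand), 2 that fell (ENO2, chr12:6914330-6914579, plus strand, and SLC16A3, chr17:82228792-82229041, plus strand) and 1 that was not called and has the window with the most matches (LDHA, chr11:18394313-18394562, plus strand). Each is given 5′ to 3′ on the strand of its gene and ends at the base before the listed start, with every match in capitals. SLC16A3 and LDHA have further listed starts, which hold no match and are not shown.
HK2 upstream start: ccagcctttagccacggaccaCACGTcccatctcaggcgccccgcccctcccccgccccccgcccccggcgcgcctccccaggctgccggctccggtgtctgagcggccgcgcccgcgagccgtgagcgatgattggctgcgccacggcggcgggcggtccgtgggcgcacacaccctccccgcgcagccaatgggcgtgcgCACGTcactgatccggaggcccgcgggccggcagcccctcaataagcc
HK2 downstream start: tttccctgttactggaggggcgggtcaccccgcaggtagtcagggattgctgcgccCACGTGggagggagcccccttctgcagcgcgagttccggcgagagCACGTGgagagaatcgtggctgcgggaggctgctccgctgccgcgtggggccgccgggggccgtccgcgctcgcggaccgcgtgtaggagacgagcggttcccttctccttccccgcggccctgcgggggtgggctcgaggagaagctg
SLC2A1: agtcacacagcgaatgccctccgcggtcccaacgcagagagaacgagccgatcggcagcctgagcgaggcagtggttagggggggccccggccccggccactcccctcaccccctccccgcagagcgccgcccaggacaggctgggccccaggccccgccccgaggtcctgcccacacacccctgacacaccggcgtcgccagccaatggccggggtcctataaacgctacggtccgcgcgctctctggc
ENO2: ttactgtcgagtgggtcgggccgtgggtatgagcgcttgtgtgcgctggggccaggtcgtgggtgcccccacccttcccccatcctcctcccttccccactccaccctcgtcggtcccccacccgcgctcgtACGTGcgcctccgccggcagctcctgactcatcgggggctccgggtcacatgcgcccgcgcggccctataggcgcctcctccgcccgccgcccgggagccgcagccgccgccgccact
SLC16A3: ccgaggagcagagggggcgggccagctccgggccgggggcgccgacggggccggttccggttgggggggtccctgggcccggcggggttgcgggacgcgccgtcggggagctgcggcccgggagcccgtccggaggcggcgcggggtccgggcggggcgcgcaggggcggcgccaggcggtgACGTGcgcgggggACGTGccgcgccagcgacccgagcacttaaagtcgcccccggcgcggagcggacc
LDHA: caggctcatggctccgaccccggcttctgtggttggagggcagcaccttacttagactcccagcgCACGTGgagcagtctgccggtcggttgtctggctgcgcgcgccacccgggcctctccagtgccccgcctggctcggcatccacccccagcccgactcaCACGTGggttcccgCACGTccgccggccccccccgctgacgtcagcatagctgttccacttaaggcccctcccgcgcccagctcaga
The windows hold 2 and 4 matches for HK2, 0 for SLC2A1, 1 for ENO2, 2 for SLC16A3 and 5 for LDHA, where each CACGTG palindrome counts on both strands. Over all listed starts, HK2 holds 6 matches and LDHA 5. Among genes with an entry, the core was at a start of 3 of 6 that rose, of 4 of 4 that fell and of 7 of 18 that were not called. The genes that fell have more listed starts, and per window the order turned, with the core in 4 of 7 windows of genes that rose, 4 of 17 of genes that fell and 9 of 30 of genes not called. It was thus present in genes of either direction and in genes with no call.

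With DCC-2036, 8 of the 31 genes tested rose and 4 fell. SLC2A1, HK2, PFKFB2, GAPDH, SLC16A1, PGD, RPIA and TALDO1 rose, and PFKM, PFKP, ENO2 and SLC16A3 fell. The 12 calls make 38.7% of the genes tested, and the share over all genes tested was 41.9%, with 19.2% called higher and 22.7% called lower, so the share of calls in the pathway was close to that of the whole table. The 2 groups did not overlap in 20 of the 31 genes (64.5%), 11 higher and 9 lower, against 71.1% of all genes tested. The median log2 fold change of the pathway genes was 0.08, against -0.092 over all genes tested, and the median absolute value was 0.41 against 0.60. A further 7 pathway genes had an adjusted p-value between 0.01 and 0.05.

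Of the 16 steps, 9 held a call and 7 did not. The calls were in the transporters at the 2 ends of the pathway, in hexokinase, in the 2 phosphofructokinase families, at GAPDH, in 1 enolase and in the pentose phosphate branch. The genes of phosphoglucose isomerase, aldolase, triose phosphate isomerase, phosphoglycerate kinase, phosphoglycerate mutase, pyruvate kinase and lactate dehydrogenase were not called. Of the 11 genes whose mean reached 10000, only GAPDH was called, and their log2 fold changes ran from -0.17 to 0.67. Of all 32 genes, 20 had DCC-2036 replicate 3 as the treated library furthest from the Control mean, among them 10 of the 12 called genes. The same count was not made over the whole table, so it is not known whether these genes differ in this from others.

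**Figure D1:**
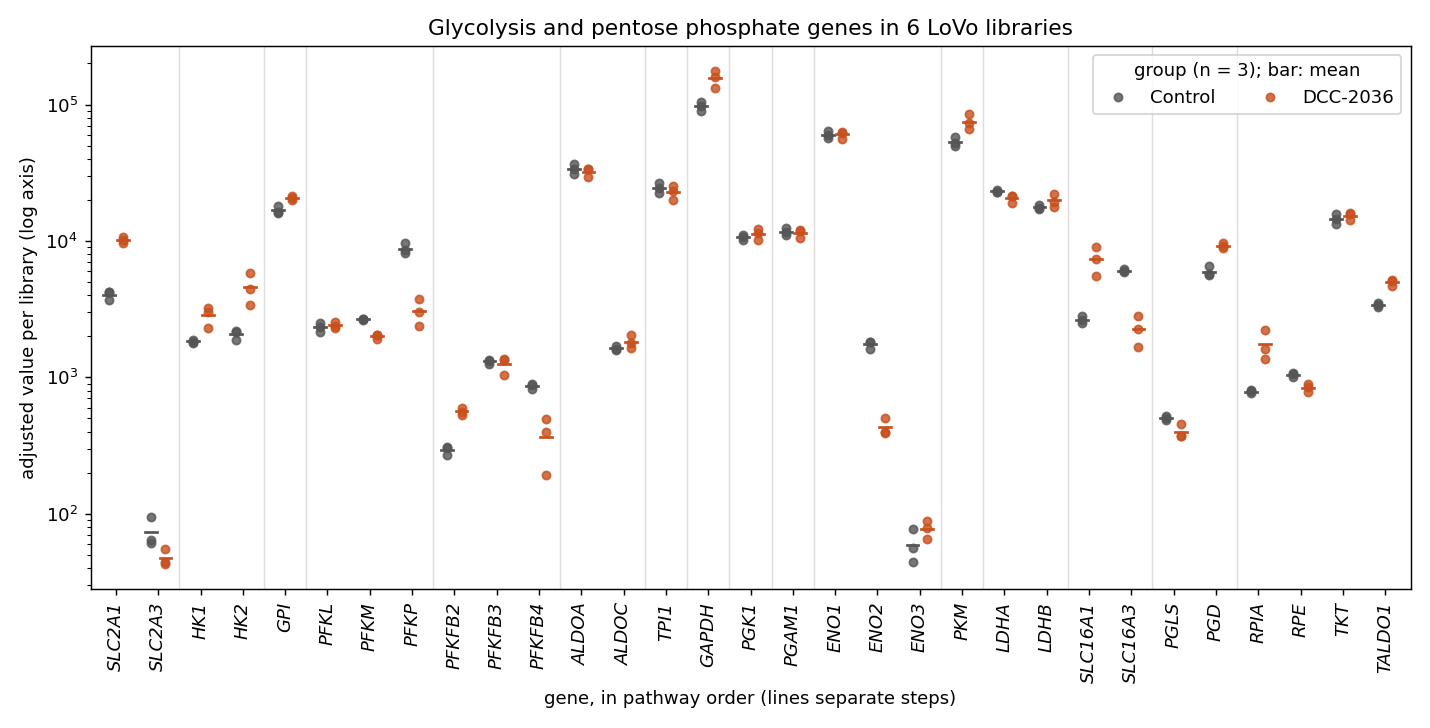
Adjusted value of each of the 31 tested genes in each library (log axis), with Control in grey, DCC-2036 in orange and a bar at each group's mean (n = 3). SLC2A1, SLC16A1 and RPIA lie higher in all 3 DCC-2036 libraries and PFKP, ENO2 and SLC16A3 lower, while ALDOA, PGAM1 and ENO1 overlap.

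At glucose uptake, 1 of the 2 transporters was called. SLC2A1 (GLUT1), the basal glucose transporter of most cells, had values of 4208, 3693 and 4225 in Control against 9641, 10729 and 10163 in DCC-2036. Every treated library lay above every Control library, and SLC2A1 rose by 1.33 ± 0.11 on the log2 scale (adjusted p = 0.000315, limma), a ratio of means of 2.52. SLC2A3 (GLUT3), a high-affinity transporter known from neurons, was low, with 95.2, 61.2 and 64.3 in Control against 44.6, 55.0 and 42.4 in DCC-2036. Its groups did not overlap, but its log2 fold change of -0.60 ± 0.20 was not called (adjusted p = 0.037). SLC2A14 is a near-identical copy of SLC2A3, so the split of reads between them is uncertain.

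Hexokinase phosphorylates glucose and traps it in the cell. HK2, the inducible isozyme that is known to be raised in many tumours, had values of 2172, 1889 and 2145 in Control against 3396, 4423 and 5846 in DCC-2036. The treated libraries were all higher but spread more widely than the Control libraries, and HK2 rose by 1.11 ± 0.20 (adjusted p = 0.00435), a ratio of 2.20. HK1, the housekeeping isozyme, had 1783, 1822 and 1888 in Control against 3001, 3245 and 2312 in DCC-2036. These groups did not overlap either, with a log2 fold change of 0.63 ± 0.15, and its adjusted p of 0.0107 lay just outside the threshold. Without DCC-2036 replicate 3, its lowest treated library, HK1 was called (adjusted p = 0.00133), and over the 15 alternatives its adjusted p ran from 0.00133 to 0.064. Per kilobase of transcript, HK1 had a mean of 508 in Control and 791 in DCC-2036, and HK2 had 358 and 789. GPI, which converts glucose 6-phosphate to fructose 6-phosphate, went from 16324, 15906 and 17916 to 20067, 21491 and 20781 without overlap, and its log2 fold change of 0.32 ± 0.10 was not called (adjusted p = 0.031). AC092073.1 shares 542 exon bases with a transcript of GPI on the same strand.

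Phosphofructokinase-1 catalyses the committed step, and its 3 genes encode the liver, muscle and platelet subunits of a tetramer. PFKP, the platelet subunit, had values of 8136, 8568 and 9589 in Control against 3743, 3002 and 2381 in DCC-2036. All treated libraries were below all Control libraries, and PFKP fell by 1.55 ± 0.18 on the log2 scale (adjusted p = 0.000903), with a mean 2.88 times as high in Control. PFKM, the muscle subunit, had 2676, 2615 and 2682 in Control against 2048, 2050 and 1908 in DCC-2036. The libraries of each group lay close together, and PFKM fell by 0.41 ± 0.09 (adjusted p = 0.00905), a call near the threshold that was lost in 11 of 15 alternatives (adjusted p from 0.00248 to 0.0397). PFKL, the liver subunit, overlapped between the groups, with 2323, 2167 and 2483 in Control against 2289, 2385 and 2533 in DCC-2036 (log2 fold change 0.05 ± 0.10, 95% interval -0.20 to 0.30, adjusted p = 0.699). Per kilobase, the Control means were 3302 for PFKP, 824 for PFKM and 798 for PFKL, and the DCC-2036 means were 1146, 621 and 825. PFKP was thus the highest of the subunits per length in both groups, by a smaller margin after treatment.

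The PFKFB genes encode enzymes that make and degrade fructose 2,6-bisphosphate, the strongest activator of phosphofructokinase-1. PFKFB2, the heart isozyme, had values of 307.5, 270.2 and 301.9 in Control against 530.0, 557.4 and 600.2 in DCC-2036. The treated libraries were all higher, and PFKFB2 rose by 0.94 ± 0.11 (adjusted p = 0.000837). This held for the longer of its 2 transcripts (NM_006212.2). The shorter (NM_001018053.1) had 190.9, 179.0 and 181.3 in Control against 217.8, 203.5 and 212.3 in DCC-2036, a log2 fold change of 0.20 ± 0.09 that was not called (adjusted p = 0.0989). YOD1, a deubiquitinase gene on the opposite strand that shares 0 exon bases with the longer transcript, had a log2 fold change of -0.78.

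PFKFB4, an isozyme known from testis and from hypoxic tumour cells, had 898.0, 819.0 and 883.6 in Control against 497.5, 398.1 and 191.6 in DCC-2036. All treated libraries were lower, but they spread widely, and the log2 fold change of -1.36 ± 0.34 was not called (adjusted p = 0.0133). Without DCC-2036 replicate 3, the lowest of them, the value was -0.96 with an adjusted p of 0.00174, and over the 15 alternatives the adjusted p ran from 0.00174 to 0.0453. PFKFB3, the inducible isozyme with the highest kinase activity, overlapped, with 1338, 1260 and 1323 in Control against 1332, 1357 and 1046 in DCC-2036 (log2 fold change -0.08 ± 0.13, adjusted p = 0.615). PFKFB1, the liver isozyme, had 11.3, 9.61 and 10.1 in Control against 2.05, 0.0139 and 0.0275 in DCC-2036. The groups did not overlap, but the values are so low that no fold change is given here.

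Most enzymes of the middle and lower part of glycolysis were among the most abundant and were not called. ALDOA, the main aldolase, which splits fructose 1,6-bisphosphate, had values of 30843, 33642 and 36435 in Control against 29472, 33825 and 33400 in DCC-2036 (log2 fold change -0.06 ± 0.11, adjusted p = 0.659). ALDOC, the brain isozyme, had 1622, 1581 and 1693 against 1630, 1793 and 2039 (0.15 ± 0.12, adjusted p = 0.287). The groups overlapped in both aldolases. In the annotation, AC093512.2 shares 1478 of the 1672 exon bases of ALDOA on the same strand, so their reads cannot be told apart. TPI1, which interconverts the 2 triose phosphates, had a log2 fold change of -0.10 ± 0.13, PGK1, which makes the first ATP of the lower part, 0.09 ± 0.11, and PGAM1, which moves the phosphate of phosphoglycerate, -0.04 ± 0.11. All 3 overlapped between the groups, and their 95% intervals together spanned -0.41 to 0.35.

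GAPDH, which oxidises glyceraldehyde 3-phosphate and yields NADH, was the most abundant of the genes, with values of 89850, 97822 and 103869 in Control against 131460, 159333 and 177153 in DCC-2036. Every treated library lay above every Control library, and GAPDH rose by 0.67 ± 0.14 (adjusted p = 0.00679). It is often used as a reference for other transcripts, and here it took 0.55 to 0.61% of the summed values in Control and 0.73 to 0.88% in DCC-2036. The annotation holds 62 pseudogenes named after it, so some of its reads could have been placed elsewhere or come from copies. The direction held under each of the 3 other scalings tried, with log2 fold changes from 0.48 to 0.76, but scaled to equal totals its adjusted p was 0.0107, and over the 15 alternatives it ran from 0.00155 to 0.0303.

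The enolases, which form phosphoenolpyruvate, differed among themselves. ENO2 (gamma enolase), the isozyme known from neurons and neuroendocrine cells, had values of 1819, 1625 and 1827 in Control against 501.8, 398.4 and 389.7 in DCC-2036. The highest treated library lay far below the lowest Control library. ENO2 fell by 2.04 ± 0.13 on the log2 scale (adjusted p = 0.000218), the largest change among the genes tested here, with a mean 4.09 times as high in Control. LRRC23, which lies on the same strand and shares 0 exon bases with it, had a log2 fold change of -1.19 (adjusted p = 0.00121). ENO1, the ubiquitous isozyme, had 56393, 59515 and 64261 in Control against 56269, 62212 and 63249 in DCC-2036, with a log2 fold change of 0.01 ± 0.11 and a 95% interval of -0.24 to 0.27. ENO3, the muscle isozyme, was low, with 56.4, 76.9 and 43.9 in Control against 78.8, 65.1 and 88.8 in DCC-2036, and overlapped (0.41 ± 0.23, adjusted p = 0.151). Per kilobase, ENO2 had a mean of 725 in Control and 177 in DCC-2036, and ENO1 had 25610 and 25832, so ENO2 was a small part of the enolase transcripts in both groups.

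PKM, the pyruvate kinase gene of most tissues and tumours, had values of 49624, 52594 and 57693 in Control against 65611, 73775 and 85728 in DCC-2036. The groups did not overlap, and the log2 fold change of 0.49 ± 0.13 was not called (adjusted p = 0.019). The table lists the M1 and M2 splice forms as transcripts that share reads, and they are not told apart here. LDHA, the lactate dehydrogenase subunit that favours lactate formation, had 22715, 23005 and 23813 in Control against 21274, 21439 and 19085 in DCC-2036, lower in all 3 treated libraries but not called (-0.17 ± 0.10, adjusted p = 0.17). LDHB, the heart subunit, had 17199, 18291 and 17371 against 17807, 19381 and 22211, with overlap (0.16 ± 0.12, adjusted p = 0.257). AC010197.2 shares 997 of the 1303 exon bases of LDHB on the same strand. Per kilobase, LDHB exceeded LDHA in both groups, with Control means of 13523 and 9593 and DCC-2036 means of 15196 and 8526. That order rests on the matched transcript lengths of 1303 and 2416 bases. By adjusted value, LDHA had the higher mean in both groups.

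The 2 monocarboxylate transporters changed in opposite directions. SLC16A1 (MCT1), a carrier of lactate and pyruvate that is known to work in import as well as export, had values of 2619, 2811 and 2497 in Control against 5522, 7319 and 9085 in DCC-2036. The lowest treated library was above the highest Control library, and SLC16A1 rose by 1.44 ± 0.19 (adjusted p = 0.00133), a ratio of 2.77. SLC16A3 (MCT4), the exporter known from highly glycolytic cells, had 6221, 5910 and 5986 in Control against 2827, 2276 and 1666 in DCC-2036. The Control libraries lay close together and all treated libraries were lower, and SLC16A3 fell by 1.45 ± 0.20 (adjusted p = 0.00141), with a mean 2.68 times as high in Control. Per kilobase, SLC16A3 had a mean of 3016 ± 80.9 (SD, n = 3) in Control and 1127 ± 289.9 in DCC-2036, and SLC16A1 had 676 ± 40.5 and 1869 ± 455.6. SLC16A3 was thus the higher of the 2 in Control and SLC16A1 the higher in DCC-2036. CSNK1D, a casein kinase gene on the opposite strand, shares 146 of the 2002 exon bases of SLC16A3. Its log2 fold change was -0.57 (adjusted p = 0.0526), and the sources do not state whether strand was used in counting.

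**Figure D2:**
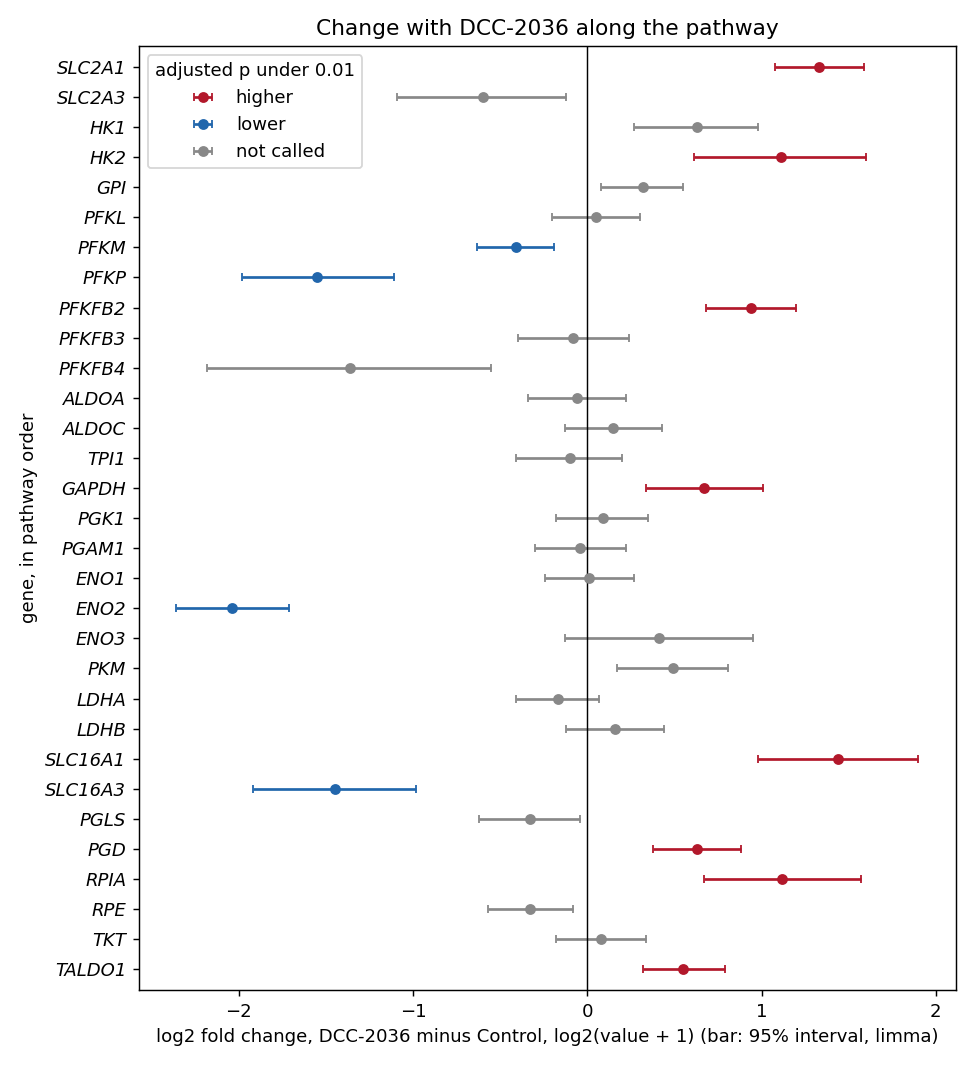
Log2 fold change of each tested gene (DCC-2036 minus Control, horizontal axis) with its 95% interval from limma, in pathway order, coloured by call. ENO2 at -2.04 and SLC16A1 at 1.44 are the extremes, and most genes between aldolase and lactate dehydrogenase lie near 0.

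Of the 6 pentose phosphate genes, 3 rose and 3 were not called. Scaled to equal totals, only RPIA was still called higher, PGD and TALDO1 were not called, and PGLS and RPE were called lower. The log2 fold changes of PGLS and RPE were then -0.52 each (adjusted p = 0.00571 and 0.00382, limma). Without DCC-2036 replicate 2, none of PGD, RPIA and TALDO1 was called (adjusted p from 0.0124 to 0.0204). PGD, the phosphogluconate dehydrogenase that yields NADPH in the oxidative arm, had values of 5655, 5736 and 6495 in Control against 9164, 9614 and 8926 in DCC-2036. The groups were well apart, and PGD rose by 0.63 ± 0.10 (adjusted p = 0.00278), a ratio of 1.55. PGLS, the lactonase just before it, had 484.2, 519.0 and 502.5 in Control against 374.4, 370.3 and 456.8 in DCC-2036, lower without overlap but not called (-0.33 ± 0.12, adjusted p = 0.0481).

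In the non-oxidative arm, RPIA, which isomerises ribulose 5-phosphate to ribose 5-phosphate, had 805.8, 761.2 and 789.7 in Control against 1367, 1619 and 2239 in DCC-2036. All treated libraries were higher, and RPIA rose by 1.12 ± 0.19 (adjusted p = 0.003), a ratio of 2.22. RPE, the epimerase that takes the same substrate to xylulose 5-phosphate, had 1054, 1074 and 1010 in Control against 774.7, 846.3 and 886.3 in DCC-2036. It was lower in all treated libraries but not called (-0.33 ± 0.10, adjusted p = 0.029), and KANSL1L on the opposite strand shares 154 of its 2511 exon bases. The 2 enzymes that draw on ribulose 5-phosphate thus had values of opposite sign. At the deposited scaling only that of RPIA passed the test, and with equal totals that of RPE passed too. RPIA was called in 10 of 15 alternatives (adjusted p from 0.000534 to 0.0151). TALDO1, the transaldolase that returns carbon to glycolysis, had 3268, 3369 and 3507 in Control against 4667, 5056 and 5156 in DCC-2036, and it rose by 0.55 ± 0.10 (adjusted p = 0.00358), a ratio of 1.47. TKT, the transketolase, overlapped, with 13410, 14505 and 15649 in Control against 15652, 15985 and 14347 in DCC-2036 (0.08 ± 0.11, adjusted p = 0.542). Per kilobase, TKT remained above TALDO1, with means of 7387 and 3685 in DCC-2036.

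To compare isozymes without any effect of library scaling, the log2 ratio of 2 paralogs was taken within each library for 9 pairs. The groups did not overlap in 8 of the 9. Of single genes, 71.1% did not overlap over the whole table, and the share for ratios of 2 genes was not computed. With 3 libraries against 3, the exact two-sided permutation test cannot go below p = 0.1, which these 8 pairs reached (adjusted p = 0.113 over the 9 pairs), so none could pass the threshold. The ratio of SLC16A3 to SLC16A1 moved most, from 1.25, 1.07 and 1.26 in Control to -0.97, -1.68 and -2.45 in DCC-2036, a difference of -2.89. Its sign turned in all 3 treated libraries, so SLC16A1 had the higher adjusted value there.

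The ratio of ENO2 to ENO1 went from -4.95, -5.19 and -5.14 to -6.81, -7.28 and -7.34, a difference of -2.05. That of SLC2A3 to SLC2A1 differed by -1.94, that of PFKP to PFKL by -1.60 and that of PFKFB4 to PFKFB3 by -1.28. Smaller differences were found for PFKM to PFKL (-0.46), LDHB to LDHA (0.33) and ALDOC to ALDOA (0.21). The ratio of LDHB to LDHA was -0.40, -0.33 and -0.46 in Control against -0.26, -0.15 and 0.22 in DCC-2036, so 1 treated library stood apart from the other 2. The ratio of HK2 to HK1 overlapped, with 0.28, 0.05 and 0.18 in Control against 0.18, 0.45 and 1.34 in DCC-2036 (exact p = 0.3). Its mean difference of 0.48 came mostly from replicate 3, in which HK2 was highest and HK1 lowest of the treated libraries.

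Other genes of sugar metabolism were counted over lists, each to be read against the 41.9% called over all genes tested. Of 31 further glycolytic isozymes and transporters, 17 were tested, 4 rose and 3 fell (41.2% called), with a median log2 fold change of 0.12. ENO4, an enolase known from sperm, rose by 1.80 ± 0.25 (adjusted p = 0.00158) and HKDC1, a hexokinase of low activity, by 0.94 ± 0.17 (adjusted p = 0.00394), both from low values. SLC16A7 (MCT2), a high-affinity lactate carrier, fell by 1.62 ± 0.35 (adjusted p = 0.00821) and SLC2A6, a lysosomal hexose transporter, by 1.52 ± 0.12 (adjusted p = 0.000287). The 3 other calls, chosen for naming after their values were seen, were BSG and BPGM, which rose, and GAPDHS, which fell. BSG (basigin), the partner that carries SLC16A1 and SLC16A3 to the cell surface, had 13022, 13900 and 15101 in Control against 18673, 21619 and 23577 in DCC-2036 (0.60 ± 0.13, adjusted p = 0.00708).

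Of 12 further pentose phosphate and ribose genes, 10 were tested, 2 rose and 2 fell (40.0% called, median -0.18). TKTL1, a transketolase-like gene, rose by 1.72 ± 0.37 (adjusted p = 0.00767) from values of at most 31.6 in Control, and H6PD, the dehydrogenase of the endoplasmic reticulum, by 0.43 ± 0.10 (adjusted p = 0.00901). H6PD was called in only 6 of 15 alternatives (adjusted p from 0.00407 to 0.113), and with equal totals its log2 fold change was 0.24. PRPS2, which makes phosphoribosyl pyrophosphate from ribose 5-phosphate, fell by 0.97 ± 0.15 (adjusted p = 0.00245), and its associated protein gene PRPSAP2 by 0.88 ± 0.15 (adjusted p = 0.00329). PRPS1, which catalyses the same reaction and is named here after its values were seen, had 1652, 1862 and 1797 against 1794, 1924 and 1859 and was not called (0.07 ± 0.10, adjusted p = 0.548).

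Of 22 symbols of gluconeogenesis and glycogen, 21 were found, 15 were tested, 2 rose and 2 fell (26.7% called, median -0.00). G6PC was also listed as G6PC1, which was not found. GYS1, the muscle-type glycogen synthase, fell from 2114, 2042 and 2270 to 803.6, 676.5 and 658.2, by 1.59 ± 0.12 (adjusted p = 0.000277). PYGB, the brain-type glycogen phosphorylase, rose from 3276, 3301 and 3576 to 6160, 6647 and 6708 (0.94 ± 0.10, adjusted p = 0.000641). The gene for glycogen synthesis was thus lower and 1 for its breakdown higher, while the liver phosphorylase PYGL, named after its values were seen, had a log2 fold change of -0.00 ± 0.10. PCK2, the mitochondrial phosphoenolpyruvate carboxykinase, rose by 1.15 ± 0.22 (adjusted p = 0.00527), and SLC37A4, the glucose 6-phosphate carrier of the endoplasmic reticulum, fell by 0.53 ± 0.12 (adjusted p = 0.00834), a call that held in only 5 of 15 alternatives (adjusted p from 0.00182 to 0.0408). In the hexosamine and glycerol 3-phosphate branches, 8 genes were found and tested, and 2 rose (25% called, median -0.08). The list also held TPI1P2, a pseudogene symbol of neither branch, which was not found. UAP1, which makes UDP-N-acetylglucosamine, rose by 0.89 ± 0.09 (adjusted p = 0.00062). GPD1L, a glycerol 3-phosphate dehydrogenase, rose by 1.02 ± 0.11 (adjusted p = 0.000632).

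Of 9 regulators of glycolysis, 7 were tested, 2 rose and 2 fell (57.1% called, against 41.9% of all genes, with a median of 0.08). HIF1A, the oxygen-regulated subunit of hypoxia-inducible factor 1, had values of 3612, 3773 and 3406 in Control against 6881, 8573 and 10773 in DCC-2036, and its transcript rose by 1.26 ± 0.17 (adjusted p = 0.00156). Its protein, which oxygen controls, was not analysed here. MLX, the partner of the glucose-sensing factors MLXIP and MLXIPL at E-box-like sites, had 1659, 1828 and 1932 in Control against 573.4, 502.3 and 503.3 in DCC-2036, and it fell by 1.78 ± 0.11 (adjusted p = 0.00021). MLXIPL fell by 0.88 ± 0.17 (adjusted p = 0.00538). ARRDC4, an arrestin-like gene known as a target of these factors and as a brake on glucose uptake, rose by 1.56 ± 0.29 (adjusted p = 0.00453) from low values.

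The direction of small changes depended on how the libraries were scaled. Scaled to equal totals, the median change over all genes tested moved from -0.09 to -0.28, and the share of higher among all calls moved from 45.8% to 33.6%. All 32 pathway genes were then tested, since PFKFB1 passed the filter at this scaling. Of these, 5 were called higher and 7 lower, in place of 8 and 4. SLC2A1, HK2, PFKFB2, SLC16A1 and RPIA remained higher, and PFKM, PFKP, ENO2 and SLC16A3 remained lower. PGLS (adjusted p = 0.00571), RPE (0.00382) and PFKFB1 (0.00206) were newly called lower. GAPDH, PGD and TALDO1 lost their calls and kept their sign. The log2 fold change was then 0.36 for TALDO1, 0.44 for PGD and 0.48 for GAPDH.

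**Figure D3:**
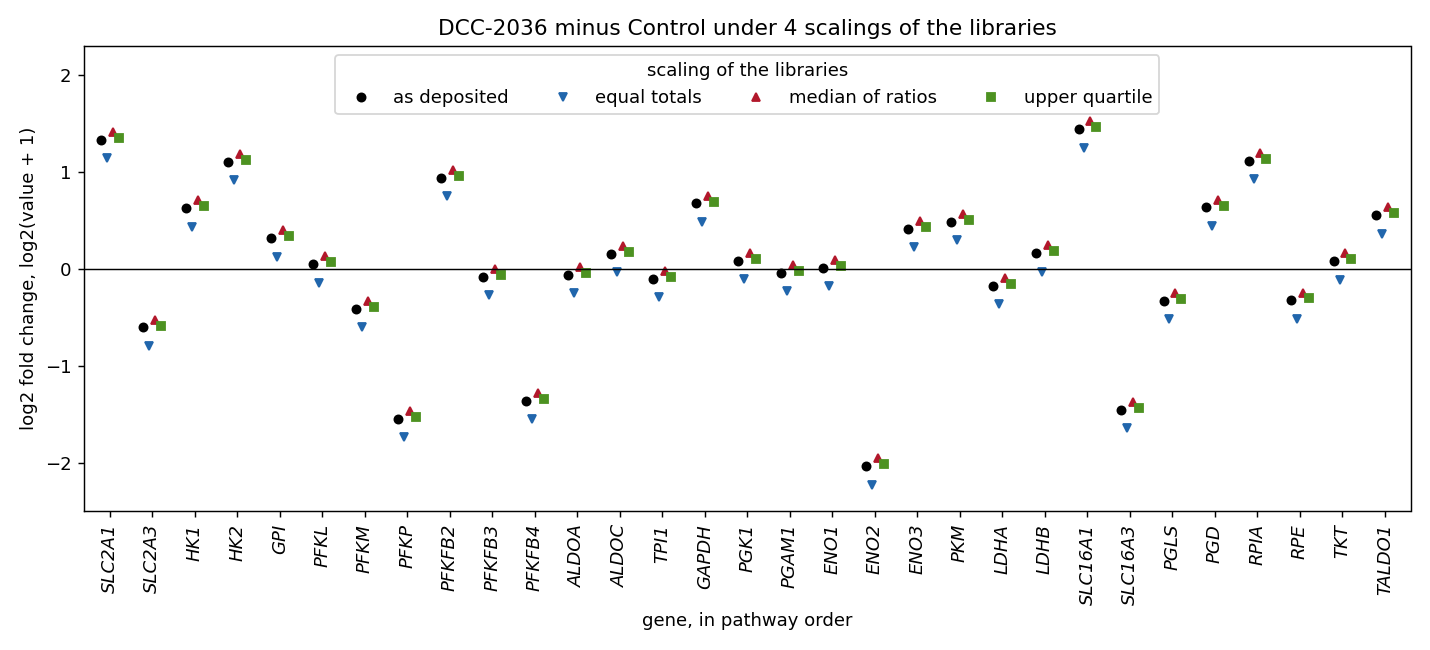
Log2 fold change of each tested gene (DCC-2036 minus Control, vertical axis) under the deposited scaling and 3 others. Equal totals lower every gene by nearly the same amount, which turns the sign of genes near 0 such as ENO1 (from 0.01 to -0.18) but leaves ENO2, PFKP, SLC16A1 and SLC2A1 far from it.

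Across all 15 alternatives of scaling, filter, model and libraries, with the call threshold kept, SLC2A1, PFKP, PFKFB2, ENO2, SLC16A1 and SLC16A3 kept their calls and their sign, apart from the shorter PFKFB2 transcript given above. When an absolute log2 fold change of 1 was also required, PFKFB2 at 0.94 was no longer called. The other 6 called pathway genes lost the call at least once. The largest adjusted p was 0.0201 for HK2, 0.0178 for PGD, 0.0151 for RPIA and 0.021 for TALDO1. Leaving out Control replicate 1, Control replicate 2 or DCC-2036 replicate 2 left 3 pathway genes called higher, and leaving out Control replicate 3 left 4, with 3 called lower each time. Over all genes tested, the calls without DCC-2036 replicate 2 went down to 929 higher and 1650 lower, from 2442 and 2887. Of the 18 further genes followed in the same way, ENO4, SLC2A6, GYS1, PYGB, GPD1L, UAP1, MLX and HIF1A kept their calls in all 15 alternatives. The other 10 (SLC16A7, HKDC1, TKTL1, PRPS2, PRPSAP2, H6PD, PCK2, SLC37A4, ARRDC4 and MLXIPL) lost the call at least once.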

How the data were processed

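RNA of 3 Control and 3 DCC-2036 libraries of LoVo cells was extracted with Trizol and made into Nextera XT libraries, per the labels. The authors deposited 1 table of 45006 RefSeq transcripts with 1 value per library, a normalized signal adjusted to a common depth. The values were not whole numbers, so read depth is unknown, no counting interval can be given, and a planned count test was not used. The aligner, genome build, counting and use of strand are not given in the sources used here. Columns of the authors' log2 fold changes, p-values and q-values were not used. Samples were grouped by their titles.

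The transcript with the highest mean was kept per symbol. The test was limma 3.58.1 in R 4.3.3 on log2(value + 1), two-sided, without covariates, for genes at 10 or more in at least 3 libraries, with Benjamini-Hochberg adjustment over all 12725 genes tested and calls at an adjusted p-value under 0.01. Paralog ratios were compared by exact permutation (scipy 1.17.1, Python 3.11.15). All 32 members are named, and in each further list at most the 4 called genes with the largest absolute log2 fold change, unless stated. The members and the lists were chosen with earlier results of these data known. Transcript lengths, neighbouring genes and pseudogenes came from GENCODE 29. Transcripts of 1 gene share reads: of 22 members with several expressed transcripts, 21 had log2 fold changes within 0.1 of each other, and PFKFB2 did not. GPI per kilobase was not used, since its kept transcript was not matched there. The fit was tested on simulated data. Alternatives were 3 scalings, 2 filters, a pseudocount of 0.1, limma with a trend, sums over transcripts, leaving out each library, a replicate block and other call thresholds.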

Additional observations from a re-analysis of the deposited data

How the results depend on the processing

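The number of pathway genes called higher (8) was 5 with equal totals and 4 when an absolute log2 fold change of 1 was also required, and it ran from 3 to 9 when each library was left out. The number called lower (4) was 7 with equal totals and 8 at an adjusted p-value under 0.05, and ran from 3 to 5 when each library was left out. The median log2 fold change of the genes (0.079) was -0.126 with equal totals and 0.161 when scaled by median of ratios. Changes of sign occurred in 9 genes, all near 0 and not called. With equal totals the log2 fold change was -0.1414 for PFKL, -0.0374 for ALDOC, -0.1048 for PGK1, -0.1773 for ENO1, -0.0272 for LDHB and -0.1106 for TKT. Scaled by median of ratios it was 0.0019 for PFKFB3, 0.0204 for ALDOA and 0.0436 for PGAM1. When each library was left out it ran from -0.0011 to 0.0972 for PFKL, from -0.1466 to 0.0413 for PFKFB3, from -0.1220 to 0.0021 for ALDOA, from -0.0785 to 0.0243 for PGAM1 and from -0.0317 to 0.0649 for ENO1. The other 22 genes tested kept their sign in all 15 alternatives, as did the 18 further genes named by rule, of which 10 lost their call at least once, and the 9 paralog ratios in theirs. Equal totals shift every gene by construction; other causes were not tested.

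With the replicate number as a block, 3 pathway genes were called higher and 3 lower, against 8 and 4, and over all genes 1202 were called higher and 1909 lower. After subtracting group means, libraries with the same number had correlations of 0.081, -0.035 and -0.003. Those with different numbers ran from -0.06 to 0.091, and not every library correlated best with its own number. With 3 libraries per group and no reference for such correlations, they cannot tell whether a number marks a shared experiment.

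With 3 libraries per group and unknown depth, small changes can be missed. PFKFB1, which the filter left out, was called lower in the 3 alternatives that tested it (adjusted p = 0.00518 without a filter, 0.00206 with equal totals, 0.00271 as a sum over transcripts), with treated values near 0. Chosen after seeing the data was the shorter PFKFB2 transcript (0.20, adjusted p = 0.0989). Tests on read counts could not be run on adjusted values.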
